A study of Mus musculus with 4 samples.

Results

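The genes described here are 10 transcription factors that set naive, memory and effector fate in CD8 T cells: Eomes, Tbx21, Id2, Id3, Zeb2, Prdm1, Bcl6, Tcf7, Lef1 and Bach2. They were taken from a list by name, and each was read from the array probe set paired with its symbol alone, or from the brightest of these. A probe set was read for 9 of the 10, out of 19938 genes tested, and each of the 9 had 1 such probe set. Tcf7 was not analysed here.

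RNA came from naive CD8 T cells of the spleen, sorted by flow cytometry from BALB/c mice. The groups were Klf13 knockout mice (KO, 2 arrays) and wild-type mice (WT, 2 arrays), with no treatment named in either, and 1 Affymetrix array was used per sample. KLF13 is a zinc-finger protein that binds GC-rich DNA and controls transcription, and the series asks what it does in memory-like CD8 T cells. The sources used here do not give the deleted part of Klf13, the age of the mice or whether the 2 samples of a group are 2 animals. The p-values therefore measure spread between samples that may be technical.

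CD8 T cells pass from a naive state to short-lived effector and long-lived memory states, and each state is held by transcription factors that oppose one another. The T-box factors Eomes and T-bet (gene Tbx21) switch on cytotoxic and cytokine genes, and Eomes is in addition needed for memory-like cells that respond to IL-15. ID2, ZEB2 and BLIMP1 (gene Prdm1) favour effector cells, whereas ID3, BCL6, TCF1 (gene Tcf7), LEF1 and BACH2 favour naive and long-lived memory cells.

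Of the 9 factors measured, Eomes fell, Id2 rose and 7 did not pass the test in KO cells. A gene passed where its Benjamini-Hochberg adjusted p, from a limma fit over all 19938 genes, was under 0.05. By this rule 2.25% of all genes passed, 1.19% as higher and 1.05% as lower in KO, and 2 of 9 is a count over few genes. After each array was centred on its median, 21.8% of the genes that passed were higher in KO, against 53.1% without centring. At an unadjusted p under 0.05 stood 4 of the 9 (Eomes, Id2, Zeb2 and Id3), against 16.6% of all genes. The KO arrays did not overlap the WT arrays for 7 of the 9, 4 of them higher and 3 lower in KO, but the same was true of 47.6% of all genes. The median log2 change, KO minus WT, was 0.10 over the 9 factors and 0.015 over all genes, and the median size of the change without its sign was 0.20 and 0.10.

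**Figure D1:**
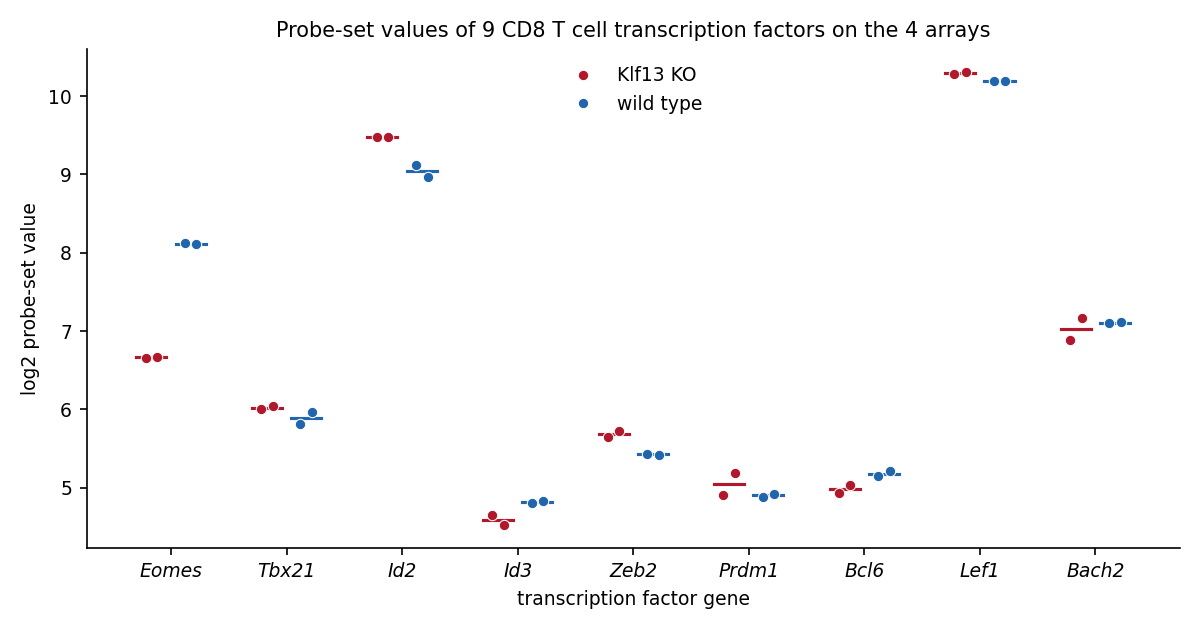
Log2 probe-set values (vertical axis) of the 9 transcription factors (horizontal axis), with Klf13 KO arrays in red at the left and wild-type arrays in blue at the right of each gene. Points are single arrays and lines are means of 2 arrays. Eomes lies at 6.66 and 6.67 in KO cells and at 8.12 and 8.11 in WT cells, and the other factors lie far closer together. Heights of different genes cannot be set against each other, because probe sets differ in how well they bind.

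Klf13 itself was lower in the KO, which checks the labels as far as its probe set covers the deleted part. Its log2 value was 5.46 and 5.43 in KO cells, against 7.01 and 7.15 in WT cells (log2 change -1.63, SE 0.10, limma adjusted p = 3.75e-05). The cells carried the transcripts that define CD8 T cells: Cd8a stood at 11.11 and 11.14 in KO and at 11.25 and 11.12 in WT cells, and Cd8b1 at 10.88 and 10.92 in KO and at 10.86 and 10.96 in WT cells. Cd4 lay below the median of the genes tested on each array, at 4.07 and 3.47 in KO and at 3.79 and 3.88 in WT cells. Cd44, a surface marker of memory cells, stood at 6.48 and 6.64 in KO and at 6.69 and 6.60 in WT cells, and the groups overlapped. Over all probe sets the upper quartile stood at 6.52 and 6.63 in the KO arrays and 6.67 and 6.66 in the WT arrays, so KO replicate 1 lay lowest.

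The upstream sequences of the T-box pair and the ID pair are shown because in each pair 1 gene passed the test and its relative did not. Each is the 250 bases before a transcription start in RefSeq, build GRCm38.p6, read 5′ to 3′ along the gene, and capitals mark matches to CCNCNCCC, the core bound by SP/KLF factors, or to GGGNGNGG, the same core on the other strand.
Eomes chr9:118477939-118478188 (+): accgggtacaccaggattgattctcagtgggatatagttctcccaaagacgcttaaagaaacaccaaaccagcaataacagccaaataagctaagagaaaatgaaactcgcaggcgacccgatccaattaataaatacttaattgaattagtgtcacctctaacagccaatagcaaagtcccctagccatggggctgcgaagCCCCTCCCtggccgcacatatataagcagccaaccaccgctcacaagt
Tbx21 chr11:97115332-97115581 (-): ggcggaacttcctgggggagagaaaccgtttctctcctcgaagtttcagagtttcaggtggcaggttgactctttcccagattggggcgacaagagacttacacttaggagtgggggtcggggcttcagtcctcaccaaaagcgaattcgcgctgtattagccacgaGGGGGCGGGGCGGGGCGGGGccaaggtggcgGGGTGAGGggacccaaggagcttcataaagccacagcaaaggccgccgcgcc
Id2 chr12:25096093-25096342 (-): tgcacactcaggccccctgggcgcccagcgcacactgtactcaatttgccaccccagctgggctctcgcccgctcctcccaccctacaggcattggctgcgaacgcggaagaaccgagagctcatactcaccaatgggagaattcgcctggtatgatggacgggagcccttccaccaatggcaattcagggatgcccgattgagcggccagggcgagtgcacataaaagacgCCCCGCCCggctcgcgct
Id3 chr4:136143572-136143821 (+): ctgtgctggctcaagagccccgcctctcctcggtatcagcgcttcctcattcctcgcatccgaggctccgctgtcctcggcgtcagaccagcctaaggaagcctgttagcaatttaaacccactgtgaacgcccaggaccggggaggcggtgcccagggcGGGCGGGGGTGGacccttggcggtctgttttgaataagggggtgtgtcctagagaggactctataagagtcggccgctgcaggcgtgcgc

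Eomes had 1 match, which began 48 bases before the start, and Id2 had 1 match, 18 bases before it. Tbx21 had 5 matches, 4 of which overlap in 1 GC-rich run that begins 83 bases before the start, and Id3 had 2 overlapping matches, the first 90 bases before it. The core is common: 45.9% of all 32851 RefSeq windows of this length and 55.9% of the 19177 windows of genes tested here hold at least 1 match. Of the 16 windows of the 9 measured factors, some of which have several starts, 12 held a match. Counted by gene, 7 of the 9 had a match in at least 1 window, and Bcl6 and Bach2 had none in theirs. No share by gene was taken over all genes, and a gene with several windows can match more easily. The count by gene can therefore not be set against the shares of windows. A match gives letters in a window and no evidence of binding, and matches stood upstream of genes that fell, rose and did not pass.

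Eomes showed the largest change among the 9 factors. Its log2 value was 6.66 and 6.67 in KO cells, against 8.12 and 8.11 in WT cells, so both KO arrays lay far below both WT arrays. The means were 6.67 ± 0.0081 in KO and 8.12 ± 0.0059 in WT cells (SD, n = 2 each), which is a 2.73-fold lower level in KO (log2 change -1.45, 95% interval -1.65 to -1.25, limma adjusted p = 3.75e-05). Arrays of the same genotype differed by 0.01 in either group. Eomes ranked 5th from the most lowered of the 19938 genes and 9th by p. It lies on chromosome 9, whereas Klf13 lies on chromosome 7. In bulk RNA such as this, fewer Eomes-expressing cells and less Eomes RNA per cell cannot be told apart.

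NK cells also express Eomes, and 0 of their measured markers passed as lower in KO. Of 12 NK markers measured, 2 rose (Tyrobp and Cd244a), 0 fell and 10 did not pass the limma test, with 7 at an unadjusted p under 0.05. The median was 0.30, 9 of the 12 were above 0, and the summed linear values were 220 and 234 in KO against 197 and 180 in WT cells. Tyrobp and Fcer1g are in the list of myeloid and dendritic cell markers too, so the NK counts and sums are not separate from that list. The defining NK receptor genes were dim in both groups: Ncr1 stood at 3.84 and 4.12 in KO and at 3.70 and 3.43 in WT cells, and Klrb1c at 2.56 and 2.58 in KO and at 2.38 and 2.31 in WT cells. RMA gives no value of 0, so no marker can be called absent. The part of NK cells in the value of Eomes was not tested.

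Tbx21 encodes T-bet, the paralog of Eomes, and did not pass. The array values were 6.0 and 6.04 in KO cells, against 5.81 and 5.96 in WT cells. The KO arrays lay just above the WT arrays, by less than the WT arrays lay from each other (log2 change 0.14, 95% interval -0.08 to 0.35, limma adjusted p = 0.523). The interval holds no rise above 0.35 and no fall beyond 0.08 on the log2 scale. The difference between Eomes and Tbx21 within an array was 0.66 and 0.63 in KO cells and 2.32 and 2.15 in WT cells, so the 2 genes' changes differed by -1.59 on the log2 scale. An exact two-sided permutation test of this difference gave p = 0.333 (also 0.333 after Benjamini-Hochberg adjustment over 4 pairs), the smallest p that 2 arrays against 2 allow.

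**Figure D2:**
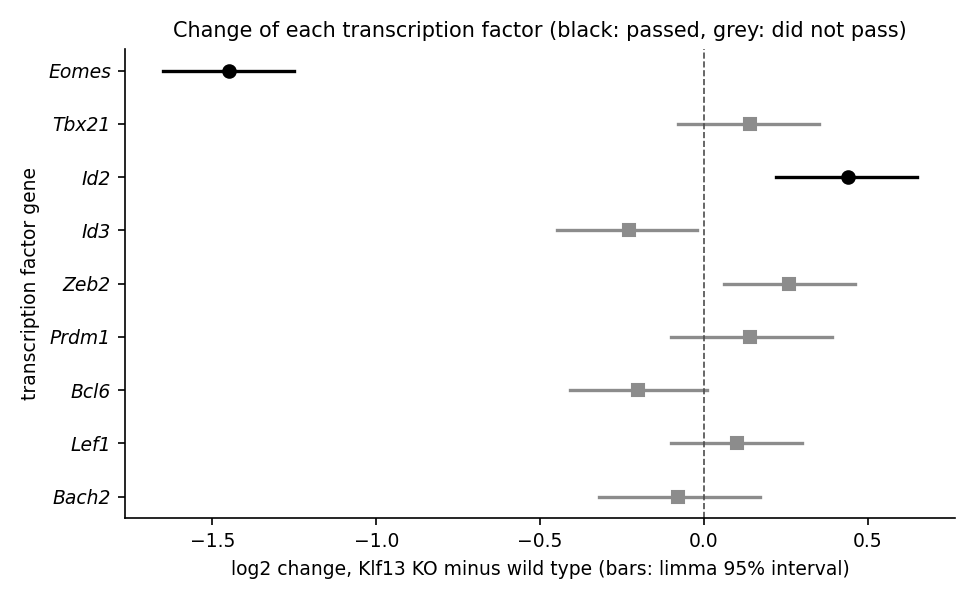
Log2 change, Klf13 KO minus wild type (horizontal axis), of the 9 transcription factors (vertical axis), with bars for the limma 95% interval over 2 arrays a group. Black circles passed the test and grey squares did not. The interval of Eomes (-1.65 to -1.25) lies far from 0, that of Id2 (0.22 to 0.65) lies above 0, and those of the other 7 lie between -0.45 and 0.46.

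Id2 encodes an inhibitor that binds E proteins and keeps them off DNA, and it favours effector cells. Its log2 value was 9.48 and 9.48 in KO cells, against 9.12 and 8.97 in WT cells, with no overlap. The rise was 1.35-fold (log2 change 0.44, SE 0.10, 95% interval 0.22 to 0.65, limma adjusted p = 0.0494), and Id2 ranked 445th by p among the 448 genes that passed. The call was lost on each omission of 1 array: the adjusted p was 0.125 without KO replicate 1, 0.0509 without KO replicate 2, 0.102 without WT replicate 1 and 0.441 without WT replicate 2, while the change stayed between 0.36 and 0.52. It was lost as well with all single-gene probe sets (adjusted p = 0.0539) and after centring each array on its median (0.35, adjusted p = 0.0673).

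Id3, the relative of Id2 that marks naive and memory precursor cells, did not pass. The array values were 4.65 and 4.52 in KO cells, against 4.80 and 4.83 in WT cells. The KO arrays lay below the WT arrays (log2 change -0.23, 95% interval -0.45 to -0.02, unadjusted p = 0.0337 and adjusted p = 0.256 in limma). Its probe set lay in the middle of the range, with 50.6% of genes dimmer. The difference between Id2 and Id3 within an array, which has meaning between groups but not as a level, was 4.83 and 4.96 in KO and 4.32 and 4.13 in WT cells. The 2 genes' changes thus differed by 0.67 with no overlap (exact permutation p = 0.333, the smallest possible).

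Zeb2 and Prdm1 encode zinc-finger repressors that favour terminal effector cells, and neither passed. Zeb2 stood at 5.65 and 5.72 in KO cells, against 5.43 and 5.42 in WT cells. Both KO arrays were higher (log2 change 0.26, 95% interval 0.06 to 0.46, unadjusted p = 0.0173 and adjusted p = 0.195 in limma). Prdm1, which encodes BLIMP1, stood at 4.91 and 5.19 in KO cells, against 4.88 and 4.92 in WT cells. KO replicate 1 lay between the WT arrays, and the gap of 0.28 between the KO arrays exceeded the change (log2 change 0.14, 95% interval -0.10 to 0.39, limma adjusted p = 0.571). It was 0.28 without KO replicate 1 and 0.002 without KO replicate 2.

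Id2 and Zeb2 are also active in dendritic cells and macrophages, and some genes in a joint list of myeloid and dendritic cell markers rose. Of 18 myeloid and dendritic cell markers, 4 rose (Lyz2, Csf1r, Mpeg1 and Tyrobp), 0 fell and 14 did not pass the limma test, with 10 at an unadjusted p under 0.05 and a median of 0.28. Their summed linear values were 1704 and 1793 in KO against 1318 and 1329 in WT cells. Lyz2, which encodes lysozyme, stood at 5.18 and 5.58 in KO and at 4.21 and 4.24 in WT cells. The dendritic cell genes Siglech (0.12), Clec9a (0.14), Xcr1 (0.23), Batf3 (0.1) and Itgax (0.49) did not pass. The macrophage gene Adgre1 (0.09) did not pass either, and 17 of the 18 markers were above 0. Of 16 neutrophil and myeloid progenitor markers, 6 rose (Mpo, Elane, Prtn3, Ctsg, Cd34 and Prg2), 0 fell and 10 did not pass limma. Over all genes 1.19% rose. At an unadjusted p under 0.05 in limma stood 10 of the 16, and 15 were above 0. The neutrophil genes S100a8 (0.3), S100a9 (0.23), Ngp (0.33), Ltf (0.17), Camp (0.06) and Ly6g (-0.12) did not pass. The summed linear values of the 16 were 1594 and 1765 in KO against 748 and 809 in WT cells. The part of these cells in the values of Id2 and Zeb2 was not tested.

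Bcl6 encodes a repressor that opposes BLIMP1 and sustains memory precursors, and it did not pass. On the log2 scale it stood at 4.93 and 5.03 in KO cells, against 5.15 and 5.21 in WT cells. Both KO arrays were lower (log2 change -0.20, 95% interval -0.41 to 0.01, limma adjusted p = 0.322). The difference between Prdm1 and Bcl6 within an array was -0.02 and 0.15 in KO cells and -0.27 and -0.29 in WT cells, so the changes differed by 0.34 with no overlap (exact permutation p = 0.333, the smallest possible).

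Lef1 encodes an HMG-box factor that keeps T cells naive or stem-like, and its probe set was bright, with 99.0% of genes dimmer. Its log2 value was 10.28 and 10.31 in KO cells, against 10.20 and 10.20 in WT cells. The KO arrays were higher by a small margin (log2 change 0.10, 95% interval -0.10 to 0.30, limma adjusted p = 0.648), and a change beyond 0.30 lies outside the interval. Median centring brought the change to 0.01.

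Bach2, which encodes a repressor that restrains effector differentiation, had overlapping groups. On the log2 scale it stood at 6.89 and 7.17 in KO cells, against 7.10 and 7.11 in WT cells. One KO array lay below and the other above the WT pair, and the gap of 0.28 between the KO arrays exceeded the change (log2 change -0.08, 95% interval -0.32 to 0.17, limma adjusted p = 0.779). The sign turned after a further quantile normalization (0.01) and without KO replicate 1 (0.065). The difference between Zeb2 and Bach2 within an array was -1.23 and -1.45 in KO cells and -1.66 and -1.70 in WT cells, so the changes differed by 0.34 (exact permutation p = 0.333, the smallest possible).

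B cells express Bcl6 and Bach2 as well, and some B cell markers rose. Of 16 B cell markers measured, 3 rose (Ighm, Mzb1 and Cd74), 0 fell and 13 did not pass, with 8 at an unadjusted p under 0.05 in limma and a median of 0.23. Their summed linear values were 1452 and 1492 in KO against 999 and 1027 in WT cells. Cd79a, the defining B cell receptor chain, stood at 5.91 and 6.03 in KO and at 5.51 and 5.79 in WT cells and did not pass. Of the 16 markers, 13 were above 0 and 3 below it (Cr2 -0.06, Fcer2a -0.09 and Cd22 -0.05), and Ms4a1 changed by 0.01. Over all genes 1.19% rose. The part of B cells in the values of Bcl6 and Bach2 was not tested. Among 11 T cell markers, 0 rose and 0 fell in limma, and the median was -0.07, with 9 below 0 and 2 above it. Thy1 was the 1 marker at an unadjusted p under 0.05 (log2 change -0.34, limma adjusted p = 0.109). The summed linear values of the 11 were 11295 and 11539 in KO against 11863 and 11893 in WT cells.

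**Figure D3:**
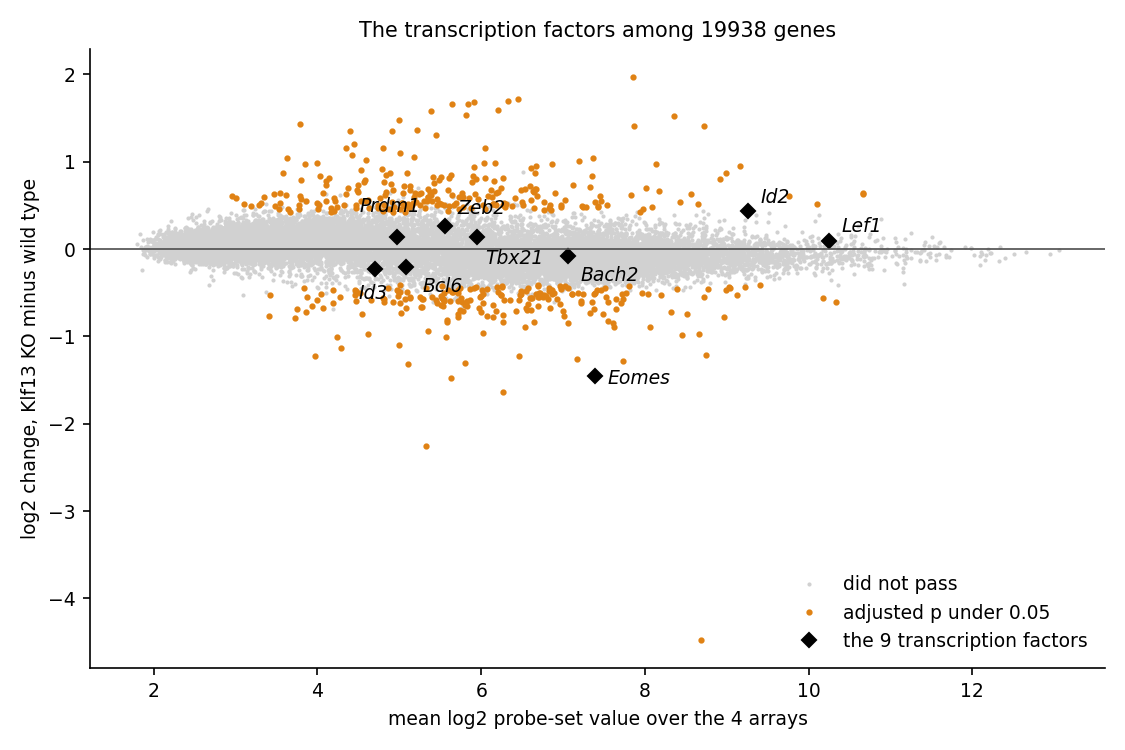
Log2 change, Klf13 KO minus wild type (vertical axis), against the mean log2 probe-set value over the 4 arrays (horizontal axis) for 19938 genes. Orange points passed the limma test, grey points did not, and black diamonds are the 9 transcription factors. Eomes (-1.45) lies well outside the grey cloud, Id2 (0.44) lies at its upper edge, and the other 7 lie within it.

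The design limits what the 7 that did not pass can show. A gene with the median standard error (0.0984) needed a log2 change of about 0.443 to pass, and the needed change was 0.412 and 0.54 at the lower and upper decile of standard errors. The 7 changes lay between -0.23 and 0.26, below that size, so smaller changes were not detectable with these 4 arrays and are not shown to be absent.

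The genes with the array profile closest to that of Eomes were Dkkl1, Klf13, Nsg2, Fam169b and Samd3, among 17229 genes compared by the distance between values centred on each gene's mean over the 4 arrays. Their distances were 0.115, 0.214, 0.234, 0.245 and 0.279 on the log2 scale, and their log2 changes were -1.47, -1.63, -1.22, -1.26 and -1.31. Dkkl1 stood at 4.85 and 4.95 in KO cells, against 6.44 and 6.30 in WT cells. Dkkl1, Klf13 and Fam169b lie on chromosome 7, Nsg2 on 11 and Samd3 on 10. The closest to Id2 were Spns3, St14, Itga2, Adgra3 and Tmem159, with distances of 0.0327 to 0.0528 and changes of 0.42 to 0.46, and of these St14 (adjusted p = 0.0523) and Itga2 (0.0602) did not pass limma. With 4 arrays such likeness rests mostly on the size of the difference between the groups.

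Genes known to be switched on by T-bet or Eomes fell more often than they rose. Of 22 measured, 5 fell (Nkg7, Cxcr3, Gzmb, Prf1 and Il18rap), 1 rose (Ccl5) and 16 did not pass limma, where 1.05% and 1.19% of all genes fell and rose. Below 0 lay 15 of the 22, and the median log2 change was -0.21, against 0.015 over all genes. At an unadjusted p under 0.05 in limma stood 14 of the 22, against 16.6% of all genes. The lists were drawn up with earlier results of these data known, so these counts describe the list and are no independent evidence of its direction.

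Cxcr3, a chemokine receptor of effector and memory T cells, had log2 values of 8.16 and 8.19 in KO cells, against 9.10 and 9.20 in WT cells (log2 change -0.97, SE 0.09, limma adjusted p = 5.51e-04). Gzmb, which encodes granzyme B, stood at 5.48 and 5.60 in KO cells, against 6.56 and 6.44 in WT cells (-0.96, adjusted p = 8.17e-04). Prf1, which encodes the pore-forming perforin, stood at 7.01 and 7.33 in KO cells, against 8.13 and 8.0 in WT cells (-0.89, adjusted p = 0.00434). These genes are given because they passed, so groups that do not overlap, as in 47.6% of all genes, are no further evidence. In all 3 genes both KO arrays lay below both WT arrays, and the calls held in each of the 11 alternatives.

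Nkg7, a granule membrane protein gene, had the largest fall of these targets, with 6.32 and 6.58 in KO cells, against 10.95 and 10.90 in WT cells (log2 change -4.47), and it lies on chromosome 7, as does Klf13. Il18rap, an IL-18 receptor chain, stood at 6.48 and 6.5 in KO and at 6.89 and 6.93 in WT cells (-0.42, limma adjusted p = 0.0468). Its call was lost after a further quantile normalization (adjusted p = 0.106) and without KO replicate 1 (0.0992), WT replicate 1 (0.282) or WT replicate 2 (0.326). Ccl5, the chemokine gene RANTES, moved the other way, with 10.09 and 10.04 in KO cells, against 9.43 and 9.49 in WT cells (0.60, adjusted p = 0.00822).

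Several T-box targets did not pass. Il2rb, the receptor chain shared by IL-15 and IL-2, stood at 8.68 and 8.82 in KO and at 8.77 and 8.75 in WT cells (log2 change -0.01, 95% interval -0.22 to 0.20). Ifng, the interferon-gamma gene, stood at 5.74 and 5.67 in KO and at 5.63 and 5.52 in WT cells (0.13, limma adjusted p = 0.539). These 2 genes were singled out as textbook targets after their values were seen, and they do not stand for the 16 that did not pass. Over all 22 targets, 15 lay below 0 and 7 above it.

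**Figure D4:**
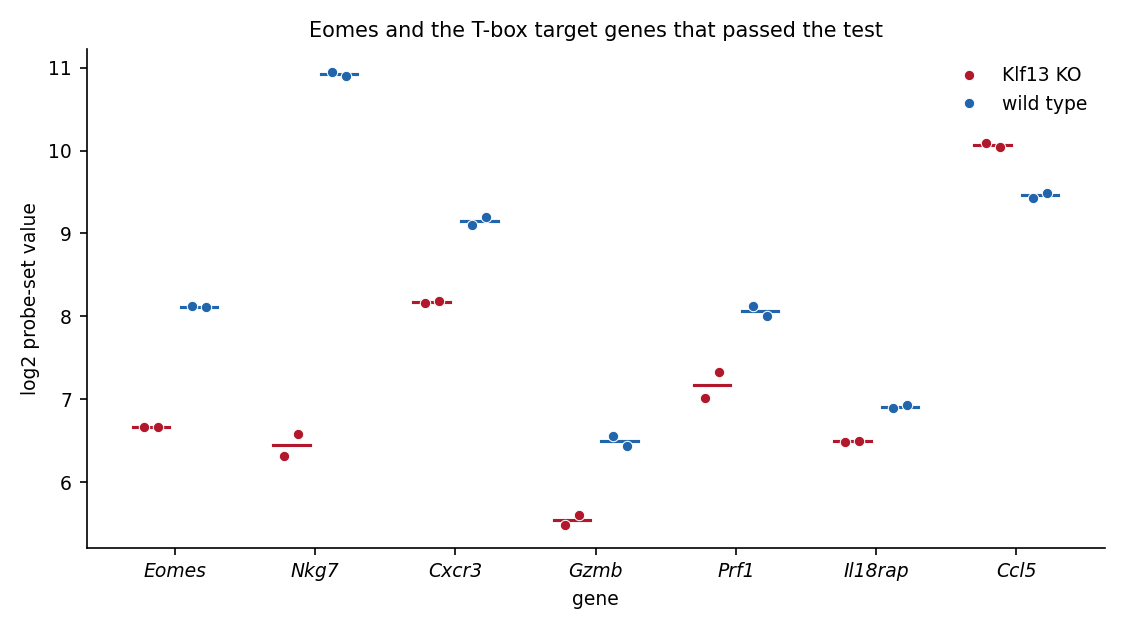
Log2 probe-set values (vertical axis) of Eomes and of the 6 T-box target genes that passed the test (horizontal axis), with Klf13 KO arrays in red at the left and wild-type arrays in blue at the right. Points are single arrays and lines are means of 2 arrays. In Nkg7, Cxcr3, Gzmb, Prf1 and Il18rap both KO arrays lie below both WT arrays, as in Eomes, and in Ccl5 both lie above. The genes are shown because they passed, so this separation is no further evidence.

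Genes that go with TCF1, LEF1 and BACH2 in naive and stem-like cells changed in both directions. Of 19 measured, 2 rose (Igfbp4 and Dapl1), 3 fell (Nsg2, Cxcr5 and Cd28) and 14 did not pass limma, and the median was -0.03. Dapl1, which is high in naive T cells, stood at 9.35 and 9.49 in KO cells, against 8.52 and 8.59 in WT cells (log2 change 0.87, adjusted p = 0.00152). Cd28, the costimulatory receptor, stood at 8.11 and 8.17 in KO cells, against 8.85 and 8.92 in WT cells (-0.74, adjusted p = 0.00309). Il7r, the IL-7 receptor of naive and memory cells, stood at 10.06 and 10.13 in KO and at 10.44 and 10.45 in WT cells and did not pass (-0.35, adjusted p = 0.0935), and it was singled out after its values were seen. Of 13 CD4 and regulatory T cell markers, 3 rose (Gpr83, Ikzf2 and St8sia6), 2 fell (Cxcr5, which is in both lists, and Tnfsf8) and 8 did not pass. Their summed linear values were 469 and 524 in KO against 476 and 459 in WT cells. Foxp3, which defines regulatory T cells, stood at 4.44 and 4.55 in KO and at 4.64 and 3.99 in WT cells, and the groups overlapped.

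Genes of terminal effector cells that go with BLIMP1 and ZEB2 also split. Of 19 measured, 2 rose (Anxa2 and Anxa1, which encode annexins), 2 fell (Gzmb and Prf1, which are among the T-box targets too) and 15 did not pass limma, with a median of 0.16 and 15 of the 19 above 0. Klrg1, Cx3cr1, S1pr5 and Gzma are T-box targets as well, and Itgam, Itgax and Ccr2 are among the myeloid and dendritic cell markers. The counts of these lists are therefore not separate. Anxa2 stood at 6.45 and 6.62 in KO cells, against 5.91 and 5.85 in WT cells (log2 change 0.65, adjusted p = 0.00795). Anxa1 stood at 7.02 and 6.95 in KO and at 6.53 and 6.55 in WT cells (0.44, adjusted p = 0.0382), and its call was lost after a further quantile normalization (adjusted p = 0.0543), after median centring (0.0532), and without KO replicate 1 (0.0947), WT replicate 1 (0.283) or WT replicate 2 (0.190). Klrg1, the receptor that marks terminal effector cells, stood at 3.89 and 4.47 in KO and at 3.83 and 3.92 in WT cells, and the groups overlapped. It was singled out after its values were seen.

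Among 42 other regulators of CD8 fate, 2 rose, 1 fell and 39 did not pass limma, with a median of 0.02. Gfi1, a zinc-finger repressor, stood at 6.35 and 6.46 in KO cells, against 5.96 and 5.81 in WT cells (log2 change 0.51, adjusted p = 0.0286). Bhlhe40, a helix-loop-helix repressor, stood at 5.39 and 5.73 in KO cells, against 4.83 and 5.03 in WT cells (0.63, adjusted p = 0.033). Stat4, which carries the IL-12 signal, stood at 9.22 and 9.17 in KO cells, against 9.63 and 9.58 in WT cells (-0.42, adjusted p = 0.0493). In all 3 genes the groups did not overlap, which was also true of 47.6% of all genes. They were named because they passed, so this is no further evidence.

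Each of these calls was lost in some alternatives. Gfi1 did not pass without KO replicate 1 (adjusted p = 0.063) or WT replicate 2 (0.222), and Bhlhe40 did not pass without KO replicate 2 (0.0559) or WT replicate 1 (0.0846), or after a further quantile normalization (0.064). Stat4 did not pass without KO replicate 1 (0.0815), WT replicate 1 (0.44) or WT replicate 2 (0.218), with all single-symbol probe sets (0.052) or after a further quantile normalization (0.0994). Rora, which encodes a nuclear receptor, came closest of the rest (0.41, adjusted p = 0.0659).

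Of 19 measured partners, paralogs and corepressors of the 10 factors, such as the E proteins that ID2 and ID3 bind and the TLE corepressors of TCF1 and LEF1, 0 rose and 0 fell in limma, with 3 at an unadjusted p under 0.05 and a median of 0.04. Those with the smallest p were Zbtb7b (log2 change 0.39, limma adjusted p = 0.0659), Mafk (-0.50, 0.109), Tle4 (-0.25, 0.228) and Tle1 (-0.22, 0.37). Zbtb7b is in the list of CD4 and regulatory T cell markers too, so these lists are not separate. Mafk, a small MAF protein that pairs with BACH factors, stood at 6.19 and 6.64 in KO cells, against 7.00 and 6.85 in WT cells, and passed in 5 of 11 alternatives, among them median centring (-0.59, adjusted p = 0.0133), without KO replicate 2 (-0.73, adjusted p = 0.0277) and without WT replicate 2 (-0.58, adjusted p = 0.0313).

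**Figure D5:**
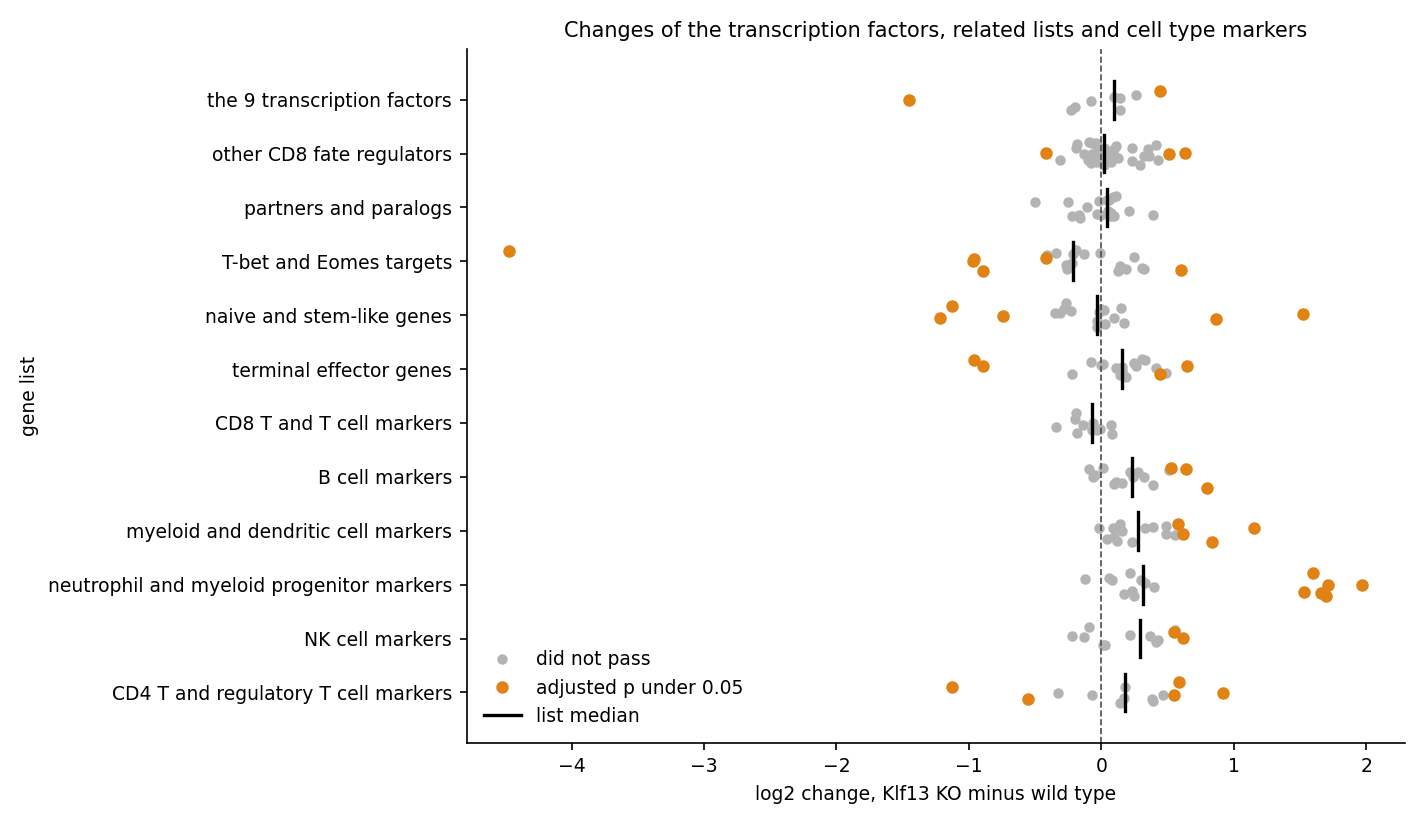
Log2 change, Klf13 KO minus wild type (horizontal axis), of each measured gene in the 9 transcription factors, 5 related lists and 6 cell type marker lists (vertical axis). Orange points passed the limma test, grey points did not, and black lines are list medians, which run from -0.21 for the T-box targets to 0.32 for the neutrophil and myeloid progenitor markers. Vertical scatter within a list carries no value.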

How the data were processed

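Per the labels' protocols, total RNA was labelled by a whole-transcript method and hybridised to 1-colour arrays, 1 per sample. The authors deposited log2 probe-set values, with RMA and Partek named in the submitters' processing notes without versions. RMA is meant to align the distributions of all arrays, so a shift of most genes would be largely removed, and changes of dim genes are compressed. The deposited values were not fully aligned. The median of the genes tested stood at 4.71 and 4.66 in the KO arrays and at 4.59 and 4.61 in the WT arrays. The table held 35556 probe sets, of which GEO's annotation pairs 21789 with 1 symbol, 1621 with several and 12146 with none listed here. Symbols were updated by gene identifier to RefSeq names of GRCm38.p6 (21698 matched). Each gene was read from its brightest single-symbol probe set, with no filter.

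KO was compared with WT by limma 3.58.1 in R 4.3.3 across all genes (lmFit and eBayes, two-sided, prior degrees of freedom 8.06). The fit was tested on simulated data. The number of arrays limits the precision. Changes are KO minus WT, intervals are limma's, and paired members were compared by exact permutation with SciPy 1.17.1.

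The factors, lists and tests were chosen with earlier results of these data known. Named were the factors, Klf13, list members that passed, and the 5 genes closest in profile to each factor that passed. In some lists members with the smallest p were named too. A few other list members were named after their values were seen. Some cell type markers that define a type were also given. Alternatives were all single-symbol probe sets, averaging of a gene's probe sets, the brighter genes alone, further quantile normalization, median centring, robust moderation with a variance trend, a block on replicate number and omission of each array. Sequences are RefSeq's, build GRCm38.p6.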

Additional observations from a re-analysis of the deposited data

How the results depend on the processing

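Eomes fell in all 11 alternatives run (log2 change -1.54 to -1.37, adjusted p under the threshold in each). Id2 passed in 5 of 11 (0.35 to 0.52), and Zeb2, Id3, Bcl6, Tbx21, Prdm1 and Lef1 kept their sign and did not pass in any. Bach2 turned to 0.01 after a further quantile normalization and ran from -0.22 to 0.065 over the omissions of 1 array; the cause was not tested. The number of factors that passed was 2, and it was 1 (Eomes) with all single-symbol probe sets, after median centring and on each omission of 1 array.

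The number of genes that passed was 448. It was 1088 after median centring and 831 with the variance trend and robust moderation together, and it ran from 264 to 1536 over the omissions of 1 array; the cause was not tested. The share of these genes that was higher in KO was 53.1%, and 21.8% after median centring. Over the 5 related lists 16 genes passed, and 12 to 23 over the omissions.

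Same-numbered arrays showed no shared deviation from their group means (correlation over genes 0.01). This cannot show whether the samples were prepared in pairs. With the number as a replicate block, 1187 genes passed, as did 2 factors and 26 genes of the related lists. Omission of 1 array leaves a group with 1 array, which is then taken to vary like the other group.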
